A study of Mus musculus with 28 samples.

Results

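The genes described here are 41 genes of protein folding, protein secretion and the unfolded protein response of the endoplasmic reticulum (ER), taken by symbol from a fixed list. All 41 were found among the 25124 gene rows of the expression table, and all 41 reached 1 TPM (the table's length- and depth-normalized unit) in at least 6 libraries, the filter that 12182 genes passed. The libraries come from CD4+ T cells sorted as live CD45+ CD90.2+ TCRb+ CD4+ cells from the small intestinal lamina propria (SILP) of T-bet-ZsGreen mice, a reporter genotype that every group shares. The mice were kept specific-pathogen-free (SPF) or germ-free (GF) and received aCD3, an antibody that binds and triggers the antigen receptor of T cells, or a control antibody of matched isotype. The 28 libraries, named here by sex and replicate number, form 4 groups. SPF mice gave 6 isotype and 6 aCD3 libraries, and GF mice gave 10 isotype and 6 aCD3 libraries. The labels used here give no age, dose or time after injection. They do not say that each library is a separate mouse, so p-values measure the spread between these libraries only.

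Proteins bound for secretion or for membranes enter the ER through the SEC61 channel, lose their signal peptide, receive N-linked sugars and are folded by chaperones and disulfide isomerases. When unfolded protein accumulates, 3 ER membrane sensors start the unfolded protein response: IRE1 (Ern1) splices Xbp1 mRNA, ATF6 is cut to release a transcription factor, and PERK slows translation and favours ATF4. XBP1 and ATF6 raise chaperone and degradation genes, and lymphocytes enlarge this machinery when they are activated and secrete, most of all plasma cells. The 41 genes were grouped by role into 9 chaperones and cochaperones, 6 calreticulin-cycle and disulfide isomerase genes, 3 sensors and regulators, 7 genes of ER-associated degradation, 7 of the translocon, 4 of the signal peptidase and 5 of the oligosaccharyl transferase.

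Depth ranged from 6765529 to 17860611 reads in genes per library. Levels are TPM computed by gene span with introns, so no level is compared between genes. CD4 T cell markers were present in all 28 libraries, at a summed 1223 to 1598 TPM. Lag3, which encodes a receptor that activated T cells express, was at 505 to 825 TPM in the SPF aCD3 libraries and at 452 to 527 TPM in the libraries labelled GF aCD3 M1, M2 and M5. The libraries labelled GF aCD3 F1, M3 and M4 had 9.59, 17.0 and 12.3 TPM, within the 5.41 to 18.5 TPM of the isotype libraries, and the counts of GF aCD3 calls are therefore given with and without them. Summed plasma cell markers, 10 genes, were at 115 to 298 TPM in SPF isotype, 28.5 to 34.5 in SPF aCD3, 41.5 to 141 in GF isotype and 27.7 to 126 in GF aCD3. SPF isotype F3 had the largest share of its TPM from the ribosomal RNA gene Rn45s, 22.9%. Relative to SPF isotype, the median gene was lower by 0.35 on the log2 scale in SPF aCD3, and scaling the libraries by the median of ratios moved it to -0.01. Values are on the TPM scale unless scaling is named, and SPF counts are given on both. Histone genes took 23.8% to 26.8% of TPM in SPF aCD3 and 23.4%, 23.1% and 25.97% in GF aCD3 M1, M2 and M5. In the other libraries they took 4.05% to 7.04% (SPF isotype), 3.79% to 9.24% (GF isotype) and 5.39%, 7.46% and 6.43% (GF aCD3 F1, M3 and M4).

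In SPF mice most chaperone, isomerase, translocon and oligosaccharyl transferase genes were higher after aCD3, while Ern1, Dnajb9 and Edem1 were lower. Of the 41 genes, 25 rose and 8 fell past an adjusted p of 0.05 (limma on log2(TPM + 1), sex as covariate, Benjamini-Hochberg over 12182 genes). Over all genes tested 14.2% rose and 50.7% fell, 64.8% in either direction. The median log2 fold change was 0.34 over the 41 genes and -0.35 over all genes. After median-of-ratios scaling 31 of the 41 rose and 3 fell, against 30.6% and 29.3% of all genes, and the medians were 0.76 and -0.01. The 25 genes that rose on the TPM scale all rose after scaling, and the 3 that remained lower were Ern1, Dnajb9 and Edem1. On TPM every aCD3 library was above every isotype library for 16 of the 41, as for 8.57% of all genes. Every aCD3 library was below for 5, as for 33.4% of all genes. After scaling these counts were 28 and 3, and the share over all genes was not counted on that scale.

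**Figure D1:**
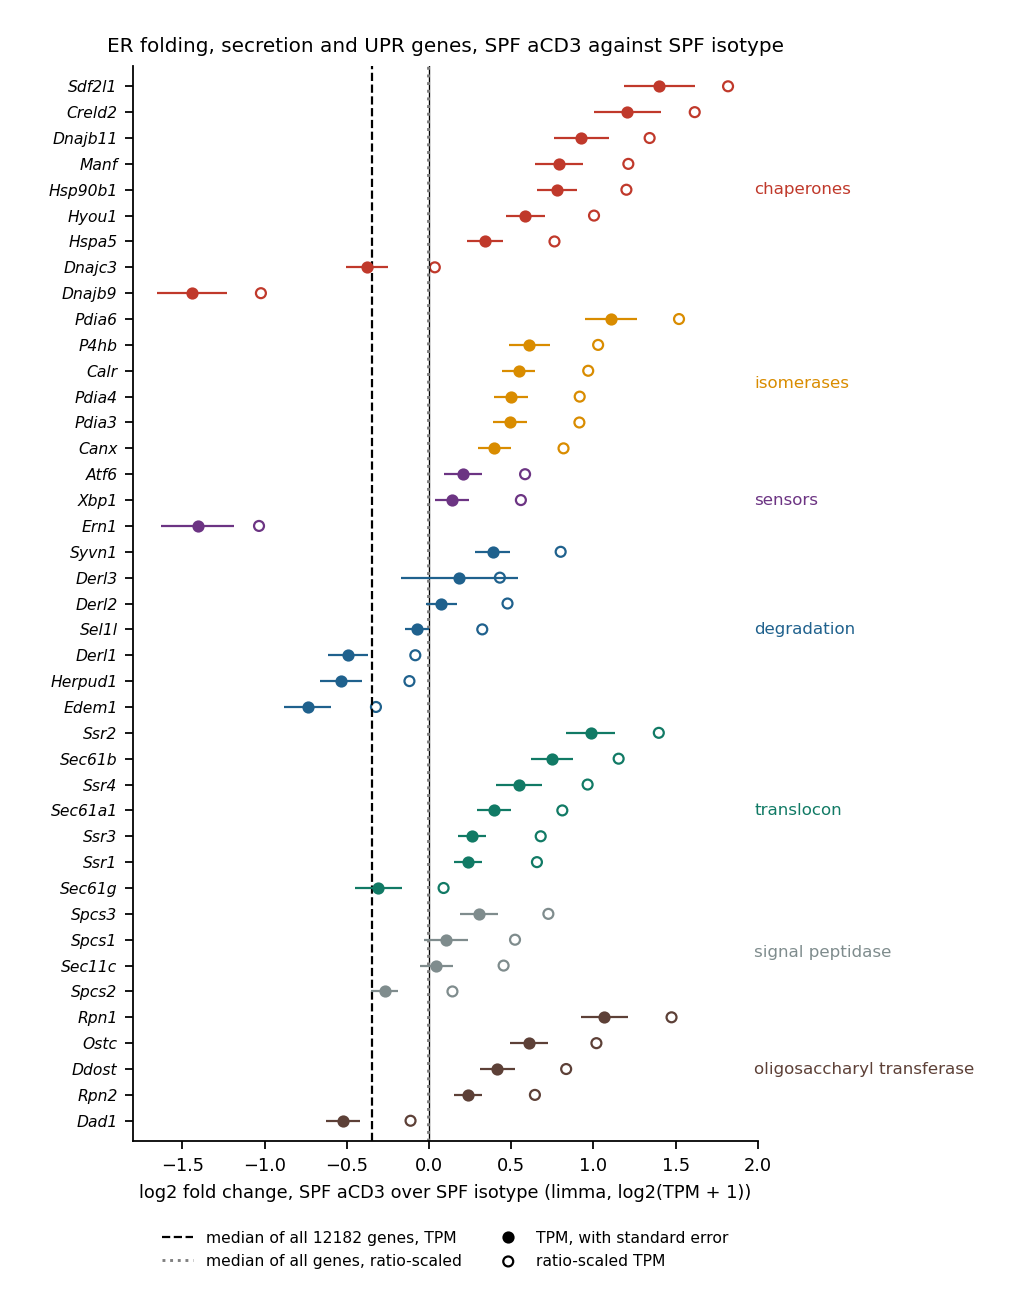
Log2 fold change of the 41 genes in SPF mice (aCD3 over isotype, x axis) by role, with filled points for TPM, bars for the limma standard error and open points for ratio-scaled TPM. The dashed line is the median of all 12182 genes on TPM, -0.35, and most genes lie to the right of it, with Dnajb9 and Ern1 farthest to the left.

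Among the chaperones, 7 of 9 rose and 2 fell in SPF mice, and 7 rose and 1 fell after scaling. Sdf2l1, a component of ER chaperone complexes (mm10 chr16:17130138-17132383), had 23.5, 32.2 and 39.2 TPM as lowest, median and highest value in isotype libraries and 47.6, 87.9 and 113 TPM in aCD3 libraries. The groups did not overlap, and the log2 fold change was 1.40 (SE 0.22, adjusted p 1.3e-05), the highest of the 41 genes. Creld2, an ER-stress-induced isomerase-like protein (chr15:88819646-88826681), went from 11.6, 14.4 and 19.6 TPM to 25.5, 36.4 and 43.0 TPM, again without overlap, a log2 fold change of 1.21 (SE 0.20, adjusted p 2.6e-05). Hspa5, which encodes BiP, the main HSP70 chaperone of the ER and the protein that holds the sensors inactive (chr2:34772090-34776529), had 1115, 1186 and 1415 TPM in isotype libraries and 1249, 1582 and 1987 TPM in aCD3 libraries. Its ranges overlapped, and its log2 fold change was 0.34 (SE 0.11, adjusted p 0.0089). This was the smallest change on TPM among the 7 chaperone genes that rose, and after quantile normalization its sign turned, with a log2 fold change of -0.26 (adjusted p 0.028). Dnajb11, a BiP cochaperone, Manf, a secreted ER stress protein, Hsp90b1, the ER form of HSP90, and Hyou1, a nucleotide exchange factor of BiP, had log2 fold changes of 0.93, 0.79, 0.78 and 0.59. Hsp90b1 (chr10:86690841-86705444) had 226, 248 and 296 TPM in isotype libraries and 335, 445 and 519 TPM in aCD3 libraries. Manf had 91.4, 107 and 116 TPM against 123, 185 and 248.6 TPM. For all 4 genes every aCD3 library was above every isotype library.

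The 2 chaperone genes that fell are both J-domain cochaperones of BiP. Dnajb9, whose protein ERdj4 also binds the lumenal side of IRE1 (chr12:44205897-44210068), had 179, 241 and 294 TPM in SPF isotype and 76.6, 83.1 and 102 TPM in SPF aCD3 libraries. These ranges did not overlap, and the log2 fold change was -1.44 (SE 0.21, adjusted p 8.6e-06), the lowest of the 41 genes, and -1.02 after scaling. Dnajc3, whose protein p58IPK also restrains PERK, fell by 0.38 on the log2 scale (adjusted p 0.013) on TPM but had 0.04 (adjusted p 0.72) after scaling.

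**Figure D2:**
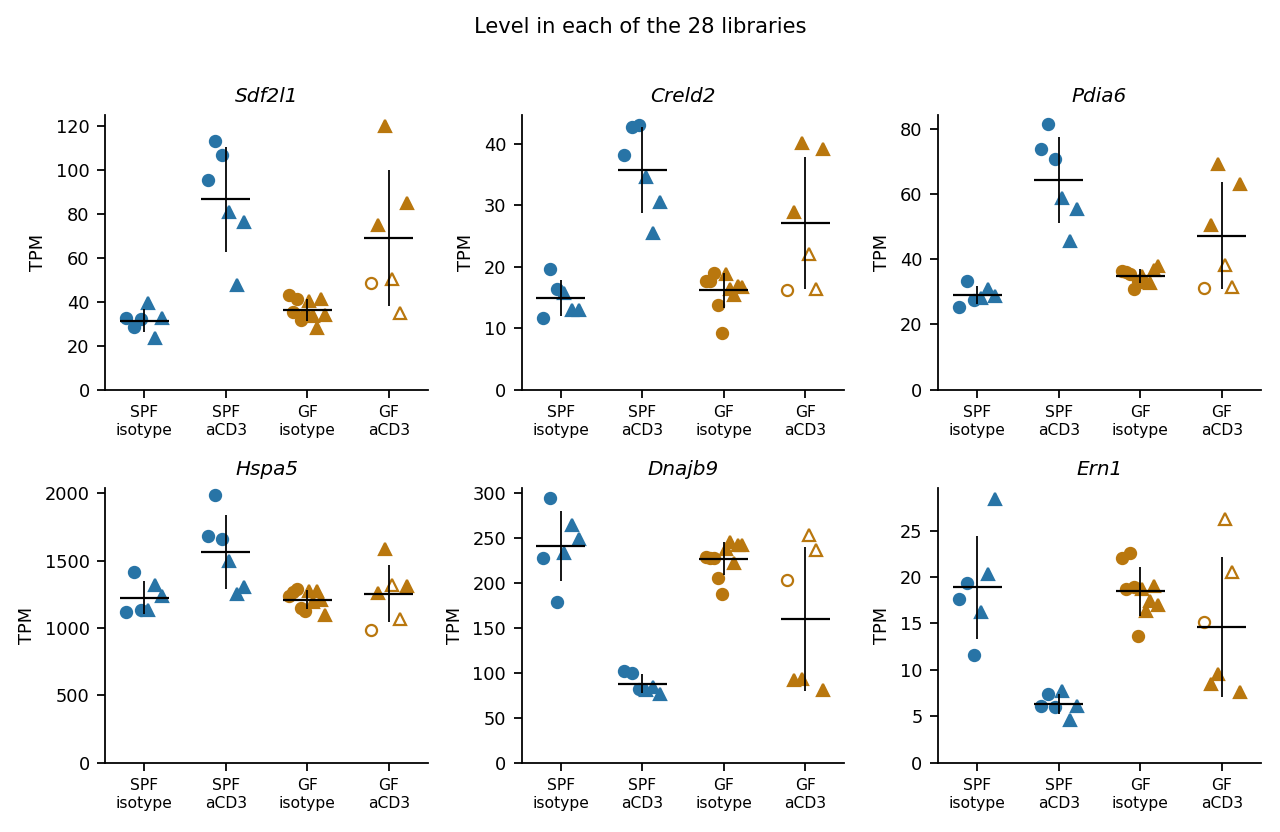
TPM of 6 genes in each of the 28 libraries, circles for female and triangles for male mice, with the group mean (line) and SD (bar). Open symbols are the libraries labelled GF aCD3 F1, M3 and M4. Sdf2l1, Creld2 and Pdia6 are higher in SPF aCD3, Dnajb9 and Ern1 are lower, and Hspa5 overlaps.

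All 6 calreticulin-cycle and isomerase genes rose in SPF mice, on TPM and after scaling. Pdia6, a protein disulfide isomerase (chr12:17266589-17284785), had 25.3, 28.4 and 33.3 TPM in isotype libraries and 45.7, 64.7 and 81.4 TPM in aCD3 libraries. Its groups did not overlap, and the log2 fold change was 1.10 (SE 0.16, adjusted p 6.1e-06). The smallest change of the group was that of Canx, the membrane-bound lectin chaperone calnexin, at 0.40 (SE 0.10, adjusted p 0.0015). Between these 2 were P4hb (PDI itself) at 0.61, Calr (calreticulin) at 0.55, and Pdia4 and Pdia3, isomerases for glycoproteins and other clients, at 0.50 and 0.49. Calr had 453, 482 and 514 TPM in isotype libraries and 590, 691 and 846 TPM in aCD3 libraries, and P4hb had 59.2, 71.8 and 75.2 TPM against 85.4, 110.1 and 121 TPM. Neither gene's groups overlapped.

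Of the 3 sensor genes none rose on TPM and Ern1 fell. Ern1, the IRE1 kinase and RNase (chr11:106397620-106487796), had 11.6, 18.5 and 28.4 TPM in SPF isotype and 4.61, 6.15 and 7.68 TPM in SPF aCD3 libraries. The ranges did not overlap, and the log2 fold change was -1.41 (SE 0.22, adjusted p 1.5e-05) on TPM and -1.03 after scaling. Xbp1, the mRNA that IRE1 splices, had 95.9, 103 and 111 TPM against 84.6, 118 and 148 TPM, a log2 fold change of 0.14 (SE 0.11, adjusted p 0.25). Atf6 had 0.21 (SE 0.12, adjusted p 0.12). After scaling both passed the test as higher, at 0.56 and 0.58. A gene-level value cannot tell spliced from unspliced Xbp1 mRNA, so IRE1 activity was not measured.

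Among the genes of ER-associated degradation 1 of 7 rose and 3 fell on TPM, while 3 rose and 1 fell after scaling, with a median log2 fold change of -0.07 on TPM and 0.32 after scaling. Edem1, a mannosidase-like lectin that marks misfolded glycoproteins (chr6:108828641-108859356), had 68.2, 88.6 and 94.7 TPM in SPF isotype and 46.0, 48.9 and 58.4 TPM in SPF aCD3 libraries. The groups did not overlap, with a log2 fold change of -0.74 (SE 0.14, adjusted p 8.3e-05) and -0.32 (adjusted p 0.0043) after scaling. Herpud1 and Derl1, membrane partners of the HRD1 ligase complex, fell by 0.54 and 0.49 on the log2 scale on TPM but had -0.12 and -0.08 after scaling, neither past the test. Syvn1, the HRD1 ubiquitin ligase, rose by 0.39 (SE 0.11, adjusted p 0.0030). Sel1l, its adaptor, had -0.07, Derl2 0.08 and Derl3 0.18, none past the test on TPM. Derl3, a derlin known from secretory cells, was counted with 0 to 5.27 TPM and a mean of 7.33 to 10.5 reads per group, with an SE of 0.36 for its SPF log2 fold change.

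At the translocon 6 of 7 genes rose, on TPM and after scaling. Ssr2, a subunit of the translocon-associated protein complex, had 19.6, 21.9 and 26.7 TPM in SPF isotype and 40.7, 43.2 and 55.7 TPM in SPF aCD3 libraries, with no overlap and a log2 fold change of 0.98 (SE 0.15, adjusted p 9.5e-06). Of the channel subunits, Sec61b had a log2 fold change of 0.75 and Sec61a1, the pore itself, 0.39, while Sec61g had -0.31 (adjusted p 0.060). Ssr4, Ssr3 and Ssr1 had 0.55, 0.26 and 0.24. In the oligosaccharyl transferase 4 of 5 genes rose and 1 fell, and after scaling 4 rose and 0 fell. Rpn1, which encodes ribophorin I (chr6:88084473-88105304), had 10.6, 13.5 and 15.0 TPM against 22.9, 29.5 and 33.8 TPM, without overlap and with a log2 fold change of 1.07 (SE 0.14, adjusted p 3.3e-06). Ostc, Ddost and Rpn2 had 0.61, 0.42 and 0.24, while Dad1, a small subunit first known for protecting cells from death, fell by 0.52 (SE 0.10, adjusted p 0.00013) on TPM and had -0.11 (adjusted p 0.18) after scaling. In the signal peptidase Spcs3 rose by 0.31 (adjusted p 0.023) and Spcs2 fell by 0.27 (adjusted p 0.0054), but Spcs2 had 0.14 (adjusted p 0.14) after scaling. Spcs1 and the catalytic subunit Sec11c had 0.10 and 0.04, and after scaling 3 of the 4 signal peptidase genes rose and 0 fell.

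**Figure D3:**
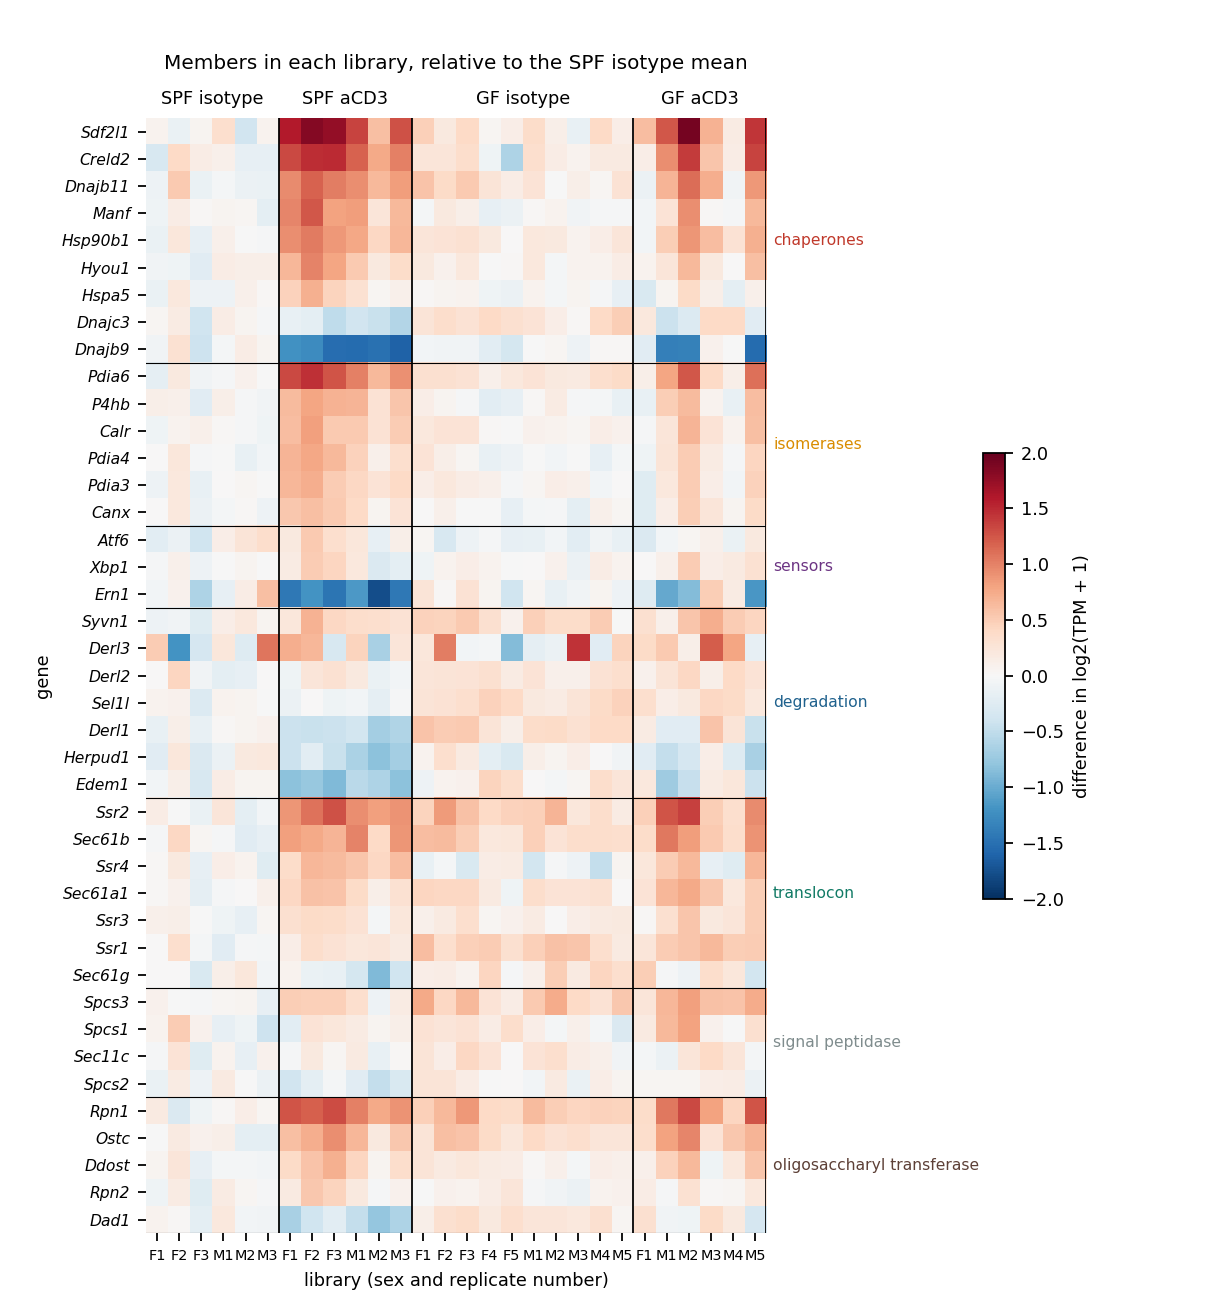
Each of the 41 genes (rows, by role) in each of the 28 libraries (columns), as the difference in log2(TPM + 1) from the SPF isotype mean. Red is higher and blue is lower. The SPF aCD3 columns are red for most chaperones, isomerases and Rpn1 and blue for Dnajb9, Ern1 and Edem1, and GF aCD3 M1, M2 and M5 have the same colours for Sdf2l1, Pdia6, Dnajb9 and Ern1.

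Among the SPF aCD3 libraries, all 3 female libraries were above all 3 male libraries for 16 of the 41 genes, as for 13.4% of all genes, a pattern noticed after the values were seen. Pdia6 had 73.8, 81.4 and 70.6 TPM in F1, F2 and F3 and 58.8, 45.7 and 55.5 TPM in M1, M2 and M3. Hspa5 had 1664 to 1987 TPM in the females and 1249 to 1499 TPM in the males. No gene of the 41 passed the limma test for a sex difference within SPF aCD3, while 18 had an unadjusted p under 0.05, as did 1375 of all 12182 genes. After scaling 23 of the 41 had every female above every male, against 12.6% of all genes. In SPF isotype libraries 2 of the 41 had every female above every male and 3 every female below, against 3.6% and 11.6% of all genes, and after scaling 9 of the 41 had every female above, against 9.08%.

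The promoters of several of these genes carry the ER stress response element (ERSE), the sequence that ATF6 and XBP1 bind together with NF-Y, and 6 promoters are shown to place the element in genes that differed in their SPF values. The RefSeq promoter table (GRCm38.p6, 250 bases before and 50 after each gene's start) held 32 of the 41 genes. It was searched on both strands for ERSE (CCAAT, 9 bases of any kind, CCACG), ERSE-II (ATTGG, 1 base, CCACG) and 2 forms of the unfolded protein response element (TGACGTGG and TGACGTGA). The opposite strand of TGACGTGG begins with CCACG, so its matches could overlap those of the first 2. ERSE was found in 9 of the 32 genes and in 0.119% of 32841 promoters. The 9 genes were Hspa5, Hsp90b1, Calr, Canx, Creld2, Derl3, Dnajc3, Pdia6 and Syvn1. ERSE-II was found in Herpud1 and Dnajb11, against 0.0365% of all promoters. TGACGTGA was found in Hspa5 alone of the 32, against 0.442% of all promoters, and TGACGTGG in none of the 32, against 0.676%. The 6 sequences are on the gene's own strand, 5′ to 3′, with matched letters in capitals, the 5 letters at each end of an ERSE or ERSE-II and all of TGACGTGA.
Hspa5 promoter (chr2:34771840-34772139, plus strand): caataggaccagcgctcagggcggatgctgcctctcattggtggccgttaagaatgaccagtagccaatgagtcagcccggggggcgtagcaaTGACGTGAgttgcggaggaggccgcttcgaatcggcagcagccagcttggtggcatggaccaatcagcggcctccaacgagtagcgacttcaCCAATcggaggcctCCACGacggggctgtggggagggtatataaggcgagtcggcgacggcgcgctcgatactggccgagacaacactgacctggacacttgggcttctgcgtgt
Hsp90b1 promoter (chr10:86705395-86705694, minus strand): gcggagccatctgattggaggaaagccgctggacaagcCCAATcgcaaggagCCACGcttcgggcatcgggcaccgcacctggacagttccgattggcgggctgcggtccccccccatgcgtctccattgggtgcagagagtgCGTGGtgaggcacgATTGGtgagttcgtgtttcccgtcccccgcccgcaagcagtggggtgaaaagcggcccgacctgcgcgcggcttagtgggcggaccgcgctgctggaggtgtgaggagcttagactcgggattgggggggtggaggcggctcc
Pdia6 promoter (chr12:17266339-17266638, plus strand): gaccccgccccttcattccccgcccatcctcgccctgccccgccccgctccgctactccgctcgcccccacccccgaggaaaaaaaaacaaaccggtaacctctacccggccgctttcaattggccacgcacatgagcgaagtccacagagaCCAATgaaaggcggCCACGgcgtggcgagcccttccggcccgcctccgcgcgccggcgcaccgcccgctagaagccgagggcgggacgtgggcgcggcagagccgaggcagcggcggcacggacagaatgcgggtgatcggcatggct
Creld2 promoter (chr15:88819396-88819695, plus strand): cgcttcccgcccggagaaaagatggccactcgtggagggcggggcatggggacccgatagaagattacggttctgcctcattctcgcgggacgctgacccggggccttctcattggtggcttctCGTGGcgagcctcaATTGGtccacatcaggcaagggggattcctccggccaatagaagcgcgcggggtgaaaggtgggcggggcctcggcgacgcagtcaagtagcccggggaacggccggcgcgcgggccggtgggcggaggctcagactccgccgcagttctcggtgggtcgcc
Herpud1 promoter (chr8:94386179-94386478, plus strand): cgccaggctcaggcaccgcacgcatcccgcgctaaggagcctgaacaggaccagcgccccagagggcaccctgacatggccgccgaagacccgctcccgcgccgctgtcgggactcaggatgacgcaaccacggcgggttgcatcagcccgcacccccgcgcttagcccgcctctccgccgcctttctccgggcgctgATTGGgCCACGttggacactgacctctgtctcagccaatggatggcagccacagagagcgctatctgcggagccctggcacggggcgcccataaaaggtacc
Dnajc3 promoter (chr14:118937682-118937981, plus strand): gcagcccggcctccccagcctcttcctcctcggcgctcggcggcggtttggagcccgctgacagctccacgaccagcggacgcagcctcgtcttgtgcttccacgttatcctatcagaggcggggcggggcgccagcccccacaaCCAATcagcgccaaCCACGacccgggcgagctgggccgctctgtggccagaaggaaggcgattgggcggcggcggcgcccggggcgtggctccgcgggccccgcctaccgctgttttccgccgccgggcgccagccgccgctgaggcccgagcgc
Hspa5 has its ERSE from 65 to 47 bases before the start and TGACGTGA farther upstream. Hsp90b1 has 2 ERSE copies in opposite directions, Pdia6 and Dnajc3 have 1 each in the forward direction, Creld2 has 1 in the reverse direction, and Herpud1 has ERSE-II close to its start. In SPF mice 8 of the 11 genes with a matched element rose and 2, Herpud1 and Dnajc3, fell, with a median log2 fold change of 0.40. After scaling 8 rose and 0 fell, with a median of 0.82. Of the 21 genes with a promoter but no match 11 rose and 5 fell, with a median of 0.24, and after scaling 15 rose and 3 fell, with a median of 0.64. Sdf2l1, Dnajb9 and Ern1 were among these 21. A match describes letters in this window only.

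The summed plasma cell markers were lower in SPF aCD3 while most of the 41 genes were higher. Jchain, the joining chain of secreted antibodies, was at 87.4 to 259 TPM in SPF isotype and 0.128 to 1.55 TPM in SPF aCD3 libraries, and Mzb1, a plasma cell ER cochaperone, at 0.991 to 6.45 and 0 to 0.566 TPM. Among the other plasma cell genes Tnfrsf17, the receptor BCMA, was at most 0.866 TPM and Fkbp11, an ER isomerase, at most 1.14 TPM in both groups. Of the markers that passed the filter, Jchain, Mzb1 and Eaf2 fell and Txndc5, a thioredoxin-domain isomerase, rose by 0.59 on the log2 scale. In bulk libraries fewer cells of a type and less RNA per cell cannot be told apart. Within groups, the log2 level of 5 of the 41 genes (Herpud1, Derl1, Ern1, Dnajb9 and Derl3) rose with the plasma cell marker score over 28 libraries, as 11.3% of all genes did in either direction. Without GF aCD3 F1, M3 and M4 none of the 41 did, and 0.0164% of all genes passed. An unadjusted p under 0.05 (limma) was found there for 7 of the 41 and 1426 of all 12182 genes. The score itself does not overlap between SPF isotype and SPF aCD3, so score and treatment cannot be told apart there, and with the score as covariate 4 of 41 genes passed the SPF test (Rpn1, Syvn1, Hsp90b1 and Pdia6, all higher) against 4.15% of all genes. Stromal markers, 6 genes, were also higher in SPF isotype, at a summed 4.42 to 42.1 TPM against 0.467 to 2.28 TPM, and their part in the results was not tested. Myeloid markers were higher in SPF aCD3, 55.0 to 106 against 3.98 to 12.8 TPM, of which the lysosomal gene Cd68 had 54.4 to 106 TPM in SPF aCD3. The macrophage genes C1qa and C1qb were listed at 0 in all 6 SPF aCD3 libraries and Adgre1 was at most 0.010 TPM there. The CD8 T cell genes Cd8a and Cd8b1 summed to 9.75 to 23.8 TPM (median 17.1) in SPF aCD3 and 5.68 to 13.5 TPM (median 8.11) in SPF isotype, and of the 2 Cd8b1 rose by 0.54 (adjusted p 0.014). Of 5 enterocyte genes tested Fabp1, a fatty acid carrier, passed as lower (adjusted p 0.048) and was listed at 0 in all 6 SPF aCD3 libraries, against 0.745 ± 0.74 TPM (SD, n = 6) in SPF isotype, with summed enterocyte markers of 2.49 to 4.75 TPM in SPF aCD3 and 4.65 to 9.80 TPM in SPF isotype. The part of myeloid cells, CD8 T cells and enterocytes in the results was not tested.

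In GF mice few of the 41 genes passed the test with all 6 GF aCD3 libraries. Sdf2l1 and Creld2 rose and Dnajb9 fell, 3 of 41 genes, against 7.08% of all genes in either direction, 2.46% higher and 4.61% lower. The 3 adjusted p-values were 0.048 to 0.050, and 24 of the 41 had an unadjusted p under 0.05, as did 4351 of all 12182 genes. After median-of-ratios scaling 8 of 41 passed, against 9.73% of all genes. Sdf2l1 had 27.8, 34.7 and 43.2 TPM as lowest, median and highest value in GF isotype libraries. In GF aCD3 it had 74.8, 120 and 84.8 TPM in M1, M2 and M5 and 48.2, 50.4 and 34.9 TPM in F1, M3 and M4, so only M4 lay within the GF isotype range. Its log2 fold change was 0.84 (SE 0.20). Creld2 had 9.25 to 18.9 TPM in GF isotype, 28.9, 40.1 and 39.2 TPM in M1, M2 and M5, and 16.2, 22.04 and 16.3 TPM in F1, M3 and M4. All but F1 and M4 of the GF aCD3 libraries were above the GF isotype range for Creld2, and the log2 fold change was 0.64 (SE 0.19). Dnajb9, with a log2 fold change of -0.64 (SE 0.20), had 187 to 246 TPM in GF isotype, 92.0, 92.5 and 81.0 TPM in M1, M2 and M5, and 203, 253 and 236 TPM in F1, M3 and M4. Ern1 had 13.6 to 22.6 TPM in GF isotype, 8.46, 9.57 and 7.65 TPM in M1, M2 and M5, and 15.2, 26.2 and 20.5 TPM in F1, M3 and M4. With all 6 libraries its log2 fold change was -0.44 (adjusted p 0.13). Pdia6 had 30.9 to 38.0 TPM in GF isotype, 50.5, 69.2 and 62.9 TPM in M1, M2 and M5, and 31.2, 38.3 and 31.3 TPM in F1, M3 and M4, with a log2 fold change of 0.37 (adjusted p 0.081). For Hspa5 the 6 GF aCD3 libraries had 984 to 1588 TPM against 1093 to 1287 TPM in GF isotype, and the ranges overlapped, with a log2 fold change of 0.05. The SD over the 6 GF aCD3 libraries, as a percentage of the mean, had a median of 19.6% over the 41 genes, against 9.43% in GF isotype, 14.1% in SPF aCD3 and 11.2% in SPF isotype.

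Without F1, M3 and M4, 23 of the 41 genes rose and 8 fell in GF mice, against 12.3% and 47.3% of all genes. These 3 libraries were left out for their Lag3 level in the same RNA. Every p-value, count and slope without them, here and in the other paragraphs, therefore describes libraries selected on a value of these data. Sdf2l1 then had a log2 fold change of 1.43, Creld2 1.17, Pdia6 0.84, Dnajb9 -1.36, Ern1 -1.04 and Edem1 -0.72, each past the test, while Hspa5 had 0.25 (adjusted p 0.058). After scaling as well, 32 rose and 4 (Dnajb9, Ern1, Edem1 and Derl1) fell, against 26.4% and 26% of all genes. By role the counts without these libraries were 6 of 9 chaperones higher and 2 lower, 6 of 6 isomerase genes higher, 5 of 7 translocon genes higher and 1 (Sec61g) lower, and 3 of 7 degradation genes lower and none higher, on TPM. After scaling they were 7 of 9 chaperones higher and 1 lower, 6 of 6 isomerase genes higher, 6 of 7 translocon genes higher and 0 lower, and 3 of 7 degradation genes higher and 2 lower. Summed plasma cell markers were 27.7, 30.0 and 33.8 TPM in M1, M2 and M5, below every GF isotype library (41.5 to 141 TPM), and 45.0, 126 and 50.9 TPM in F1, M3 and M4. Summed myeloid markers were 44.4, 47.1 and 58.3 TPM in M1, M2 and M5, above every GF isotype library (3.90 to 20.1 TPM), and 19.6, 9.05 and 18.1 TPM in F1, M3 and M4. Without F1, M3 and M4, Jchain had a log2 fold change of -4.53, Mzb1 -1.01 and Eaf2 -0.87, each past the test as lower. Pou2af1, also a plasma cell marker, passed as higher at 0.72. Of the 2 myeloid genes tested Cd68 had 2.00, past the test, and Lyz2 had -0.57 (limma, adjusted p 0.26). The enterocyte gene Fabp2 had -2.26 and the goblet cell gene Tff3 -1.22, both past the test. Another 2 enterocyte genes, Fabp1 and Apoa1, were lower past the test and listed at 0 in M1, M2 and M5. The slopes on the plasma cell score without F1, M3 and M4 passed for none of the 41 genes, as given above. The part of myeloid cells, goblet cells and enterocytes in the result was not tested. Leaving out only F1, M3 or M4 gave 23, 16 or 22 of 41 genes, against 29.8%, 34.6% and 31.7% of all genes. Leaving out any 1 of the other 13 GF libraries gave 0 of the 41 and 0 of all 12182 genes by limma, with an unadjusted p under 0.05 for 9 to 24 of the 41 and 2535 to 4318 of all genes. The other ends of the roles with all 6 libraries were Pdia3 at 0.10, Xbp1 at 0.19, Derl1 at -0.36, Ssr4 at 0.41, Spcs1 at 0.28, Sec11c at -0.07, Rpn1 at 0.35 and Dad1 at -0.14, none past the test. Acinar cell markers of the pancreas, 15 genes, were at a summed 3.37 to 941 TPM in GF aCD3, the highest in M3, and 1.48 to 134 TPM in GF isotype. With the acinar marker score as covariate 24 of the 41 genes passed the GF test, against 47.5% of all genes. Over 28 libraries 5 of the 41 had a slope on that score past the test, against 28.8% of all genes, and without F1, M3 and M4 none of the 41 did, at an adjusted or unadjusted p under 0.05 (limma), against 0.123% of all genes at an adjusted p and 563 of 12182 at an unadjusted p.

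The column names place the GF libraries in a lower and a higher series of sample numbers, each with 3 aCD3 libraries and with 6 or 4 isotype libraries, and SPF libraries in another, so the sample series and colonisation cannot be told apart. Within the lower series the median log2 fold change of the 41 genes was 0.26 and 32 were above 0, against a median of -0.12 over all genes. Within the higher series the median was 0.10 and 28 were above 0, against -0.14. No gene of the 41 passed the limma test within a series, and 1 of all 12182 genes did in each. In the lower series 15 of the 41 and 1723 of all genes had an unadjusted p under 0.05, and in the higher series 0 and 358. The lower series holds GF aCD3 M1, M2 and M3 and the higher series F1, M4 and M5, so libraries with Lag3 at isotype level are 1 of 3 in the lower and 2 of 3 in the higher. With the series as a term over all GF libraries 13 of the 41 passed, against 18.2% of all genes. Sdf2l1 had 1.17 and 0.54 in the lower and the higher series, Creld2 0.77 and 0.54, and Dnajb9 -0.86 and -0.46.

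The SPF and GF aCD3 comparisons share no library, and 40 of the 41 genes had the same sign in both, as did 85.3% of all genes. With GF aCD3 M1, M2 and M5 it was 38 of 41 and 88.5% of all genes. Across the 41 genes Pearson's r between the SPF and GF log2 fold changes was 0.94 with all libraries and 0.96 with GF aCD3 M1, M2 and M5, against 0.75 and 0.84 over all 12182 genes, a description in which genes share libraries and are not independent. The slope of GF on SPF values across the 41 genes was 0.42 with all libraries and 0.88 with M1, M2 and M5, against 0.37 and 0.80 over all genes. Of the 33 genes past the test in SPF mice, 28 were also past it in GF mice without F1, M3 and M4, where 31 passed, and all 28 had the same direction. Of the 7898 genes past the test in SPF mice over all genes, 79.6% were past it in GF mice in the same direction without these libraries.

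**Figure D4:**
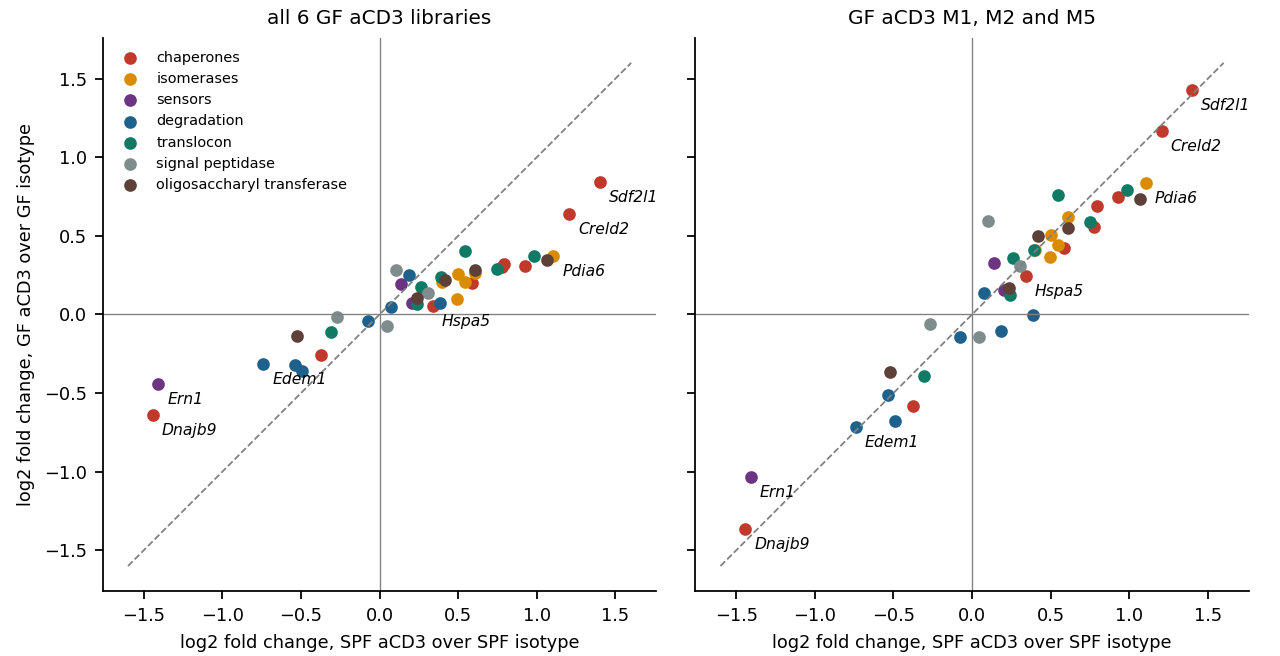
Log2 fold change after aCD3 in SPF mice (x axis) and GF mice (y axis) for the 41 genes, coloured by role, with all 6 GF aCD3 libraries (left) and with M1, M2 and M5 (right). The dashed line marks equal values. The points lie on a flatter slope, 0.42, on the left and near the line, slope 0.88, on the right.

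The aCD3 effect in GF mice minus that in SPF mice passed the test for 1 of 41 genes, against 3.48% of all genes, 2.44% higher and 1.04% lower. Rpn1 had a difference of -0.72 (SE 0.19, adjusted p 0.041), with log2 fold changes of 1.07 in SPF and 0.35 in GF mice. Without F1, M3 and M4 the Rpn1 difference was -0.34 (adjusted p 0.51), and over its alternatives the adjusted p ran from 0.0090 to 0.51. After scaling 10 of 41 passed, 9 of them lower, against 11.7% of all genes. Without F1, M3 and M4 none did by limma on either scale, against 0.0493% of all genes on TPM and 0.23% after scaling, with an unadjusted p under 0.05 on TPM for 3 of the 41 and 1118 of all genes. The ends of the other roles with all libraries were Dnajb9 at 0.80 and Dnajb11 at -0.62, Canx at -0.19 and Pdia6 at -0.73, Ern1 at 0.96 and Atf6 at -0.14, Edem1 at 0.42 and Syvn1 at -0.32, Sec61g at 0.20 and Ssr2 at -0.61, Spcs2 at 0.25 and Spcs3 at -0.17, and Dad1 at 0.39. Hspa5 had -0.29, Xbp1 0.05 and Derl3 0.07. Without F1, M3 and M4 the difference was 0.37 for Ern1, 0.08 for Dnajb9, -0.27 for Pdia6, -0.19 for Ssr2 and -0.18 for Dnajb11. Markers of other cells passed the same test with all libraries: Jchain had 4.42 (adjusted p 0.029), the stromal genes Dcn and Col1a1 had 2.49 (adjusted p 0.00053) and 2.40 (adjusted p 0.00090), and Cd68 had -2.84 (adjusted p 0.029). With the plasma cell or the acinar score as covariate 0 of the 41 passed, against 0.0903% and 0.386% of all genes, with an unadjusted p under 0.05 (limma) for 6 and 9 of the 41. The part of stromal and myeloid cells was not tested.

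Between the isotype groups, 9 of the 41 genes were higher in GF than in SPF mice and 0 lower, against 6.42% and 0.755% of all genes, 7.17% in either direction. On the TPM scale they were Rpn1 (0.52), Spcs3 (0.47), Ssr2 (0.47), Ssr1 (0.44), Sec61b (0.40), Derl1 (0.38), Ostc (0.36), Syvn1 (0.35) and Sel1l (0.32), all subunits or partners of the translocon, signal peptidase, oligosaccharyl transferase or HRD1 complex. Rpn1 had 10.6 to 15.0 TPM in SPF isotype and 17.4 to 24.7 TPM in GF isotype libraries, without overlap. After median-of-ratios scaling, and by voom on recovered reads, 0 of the 41 passed, against 1.63% and 1.87% of all genes, with an unadjusted p under 0.05 for 7 and 6 of the 41. No chaperone, isomerase gene or sensor passed on TPM, and their ends were Dnajc3 at 0.29 and Dnajb9 at -0.08, Pdia6 at 0.26 and P4hb at -0.02, and Xbp1 at 0.04 and Atf6 at -0.12. The lowest of the other roles were Herpud1 at 0.03, Ssr4 at -0.11, Spcs2 at 0.08 and Rpn2 at 0.05, with Hspa5 at -0.01 and Derl3 at 0.17. The median over the 41 genes was 0.15, as it was over all genes. Without SPF isotype F3, 4 of the 41 passed, against 2.67% of all genes. In the same comparison the stromal genes Dcn, Lum and Col1a1 had log2 fold changes of -2.44, -2.29 and -2.02. Summed stromal markers were 0.384 to 2.82 TPM in GF isotype against 4.42 to 42.1 TPM in SPF isotype. Of 6 plasma cell markers tested 1 was lower and 1 higher past the test, with values from -2.42 (Jchain) to 0.37. With the plasma cell score as covariate 12 of the 41 genes passed, as did 3052 of all genes. The part of stromal cells in the result was not tested.

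After aCD3, 18 of the 41 genes differed between GF and SPF mice, 11 higher and 7 lower in GF, against 53.3% of all genes, 48.9% higher and 4.46% lower. The 7 that were lower in GF on TPM were folding genes: Hspa5 (-0.30), Hsp90b1 (-0.29), Hyou1 (-0.29), Manf (-0.47), Pdia3 (-0.32), Pdia6 (-0.47) and P4hb (-0.37). On the same scale 2 chaperone genes were higher in GF. The highest in GF were Ern1 at 0.96 (SE 0.23, adjusted p 0.0019), Dnajb9 at 0.72, Dad1 at 0.62, Edem1 at 0.57, Derl1 at 0.52 and Sec61g at 0.43. After scaling 2 of the 41 were higher and 23 lower in GF, against 15.8% and 16.9% of all genes. The 23 were not folding genes alone, with 4 of the translocon and 3 of the oligosaccharyl transferase among them. Without F1, M3 and M4 only Spcs1, Spcs3 and Dad1 passed, all higher in GF on TPM, against 3.52% of all genes, and after scaling none of the 41 passed (limma), against 2.22% of all genes. The remaining ends of the roles with all libraries, none past the test, were Canx at -0.21, Atf6 at -0.26, Syvn1 at 0.04, Ssr4 at -0.25, Sec11c at 0.07 and Rpn1 at -0.20, beside Spcs2 at 0.34, which passed. Xbp1 had 0.09 and Derl3 0.23. Markers of other cells moved in the same comparison. All 12 acinar genes tested were higher in GF aCD3, by 1.67 to 2.72 on the log2 scale, among them Sycn at 2.31 (adjusted p 0.0056) and Ctrl at 2.68 (adjusted p 0.0049), with a summed 3.37 to 941 TPM in GF aCD3 and 0.700 to 35.9 TPM in SPF aCD3. With the acinar score as covariate 2 of the 41 genes passed, against 7.91% of all genes, and with the plasma cell score 17, against 48.8%. Jchain had 2.00 (adjusted p 0.039), the epithelial gene Epcam 0.53 (adjusted p 0.022), the stromal gene Lum -0.92 (adjusted p 0.013) and Cd68 -1.89 (adjusted p 0.0048), and the part of epithelial, stromal and myeloid cells was not tested. This comparison and the one between isotype groups share libraries with the aCD3 comparisons, and no relation between them is drawn.

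Other genes of the pathway came from 7 further lists, whose SPF counts stand beside the 14.2% of all genes that rose and the 50.7% that fell on TPM, and the 30.6% and 29.3% after scaling. In the PERK and ATF4 arm 8 of 9 genes fell and 1 rose on TPM, with a median log2 fold change of -1.01, while 5 fell and 1 rose after scaling. Atf4, the arm's transcription factor, went from 558 ± 35 TPM to 277 ± 25 TPM (SD, n = 6 each), a log2 fold change of -1.01 on TPM and -0.59 after scaling. Atf3, a stress-induced repressor, had the lowest value at -2.16, and Eif2s1, the translation factor that PERK phosphorylates, the highest at 0.43. Of 13 other folding genes 6 rose and 6 fell, and 7 rose and 6 fell after scaling. Prdx4, an ER peroxiredoxin, went from 0.899 ± 0.21 to 4.42 ± 0.95 TPM (1.50), and the oxidase Ero1l from 19.0 ± 1.6 to 8.75 ± 1.1 TPM (-1.04). In ER-to-Golgi traffic and retrieval 6 of 23 rose and 5 fell on TPM, and 15 rose and 3 fell after scaling. Values ran from Lman1, a cargo receptor, at 0.54 to its partner Mcfd2 at -0.72 on TPM. Targeting and translocation had 1 of 12 higher (Tram1, 0.30) and 6 lower (lowest Sec62, -0.95) on TPM, and 6 higher and 1 lower after scaling. Other degradation genes had 1 of 13 higher (Edem2, 0.21) and 6 lower (lowest Ube2j1, -0.76) on TPM, and 7 higher and 2 lower after scaling. Among 6 other oligosaccharyl transferase genes 3 rose and 1 fell, with Krtcap2 at 0.70 and Stt3b at -0.37, and 5 rose and 0 fell after scaling. Among 4 genes of ATF6 processing 1 rose (Creb3l2, 0.71) and 3 fell (lowest Mbtps1, -0.57) on TPM, and 1 rose and 0 fell after scaling.

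**Figure D5:**
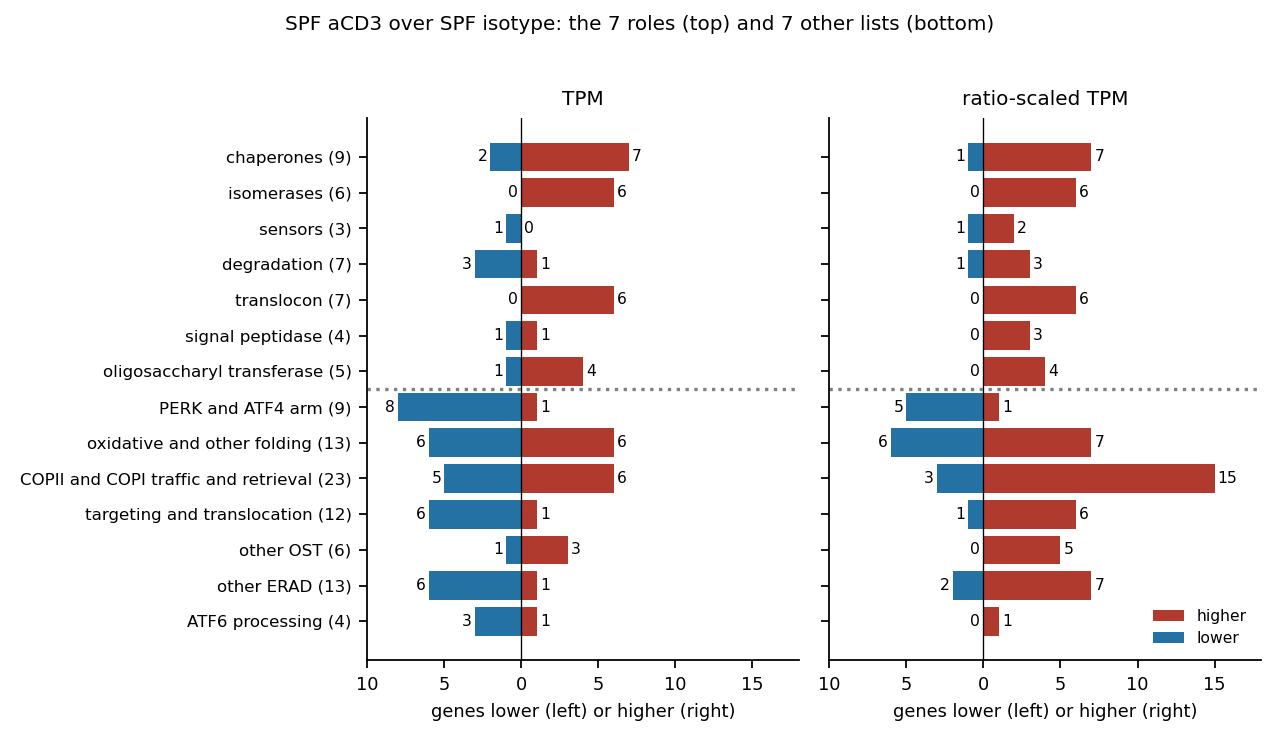
Number of genes lower (blue, left) and higher (red, right) past an adjusted p of 0.05 in SPF aCD3 against SPF isotype, for the 7 roles (above the dotted line) and 7 other lists (below), with the genes tested in brackets, on TPM and on ratio-scaled TPM. The PERK and ATF4 arm has 8 of 9 genes lower on TPM, against 6 of 6 isomerase genes higher.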

How the data were processed

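RNA of sorted small intestinal lamina propria CD4+ T cells was sequenced as 28 libraries, prepared with a total RNA kit per the labels' protocols although the labels' molecule field names polyA RNA. The authors deposited a table of TPM values for 25124 RefSeq genes on mm10, made with HOMER's analyzeRepeats with isoforms condensed to 1 row per gene, per the file header. TPM used the length of the genomic span, introns included, in 99.24% of rows, so TPM differs between genes with intron length. Of 54 TPM columns, 26 matched no sample used here and were left out. The aligner's version and read filters are not given in the sources used here.

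Values were analysed as log2(TPM + 1) with limma 3.58.1 in R 4.3.3 (group means, sex as covariate, trended empirical Bayes, Benjamini-Hochberg over 12182 genes reaching 1 TPM in 6 or more libraries, threshold 0.05), so fold changes of low genes are understated. Levels were summarised with Python 3.11.15, NumPy 2.4.6 and pandas 2.3.3. The script was tested on simulated data. TPM steps gave whole reads for 100.0% of the values checked (tolerance 0.05 reads), from 6765529 to 17860611 per library, and limma's voom on these reads, the scaling by the median of ratios, other filters, pseudocounts and covariates, and leaving out libraries were alternatives. A count of 0 allows up to 3 reads, for counting error only. The named genes are the highest and lowest of each role and list in each comparison, with Hspa5, Xbp1 and Derl3, and those a count of 5 or fewer or a described pattern turns on, which were chosen after their values were seen. The 41 genes and all lists were chosen with earlier results of these data known.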

Additional observations from a re-analysis of the deposited data

Results flagged for a closer look

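In 9 of 164 sets of 1 gene in 1 group, 1 library stood apart from the others of its group by Dixon's test, where chance flags about 1 in 20, or 8.2 sets. SPF isotype F2 was the highest of its group for Dnajb11 (35.7 TPM), Derl2 (23.1 TPM), Sec61b (16.8 TPM) and Ssr1 (70.2 TPM). SPF isotype F3 was the lowest for Sel1l (12.2 TPM). GF isotype F3 was the highest for Rpn1 (24.7 TPM) and Ssr3 (100.2 TPM), and GF isotype F5 was the lowest for Creld2 (9.25 TPM). SPF aCD3 F2 was the highest for Syvn1 (52.8 TPM).

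The aCD3 effect on Rpn1 in GF mice differed from that in SPF mice by -0.72 on the log2 scale (limma interaction, adjusted p 0.041). Without GF aCD3 F1, M3 and M4 the difference was -0.34 (adjusted p 0.51).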

How the results depend on the processing

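With 33 of the 41 genes past the test in SPF mice (64.8% of all genes), leaving out 1 library gave 31 to 34. The 31 came without SPF aCD3 F2 (7642 of all genes), among others, and the 34 without SPF aCD3 M2 (7611). The replicate block gave 33 (7589 genes), and the plasma cell score as covariate gave 4 (4.15%). With 3 in GF mice, leaving out 1 library gave 0 (0 genes) to 23 (29.8%). The other counts there, with the share of all genes past the test in brackets, were 0 (0%) with a pseudocount of 0.1, without a filter, with the replicate block or with the plasma score, 5 (12.3%) with TPM of at least 5, 8 (9.73%) with median-of-ratios scaling, 8 (20.3%) without sex, 7 (9.76%) with quantile normalization, 7 (7.63%) with voom, 13 (18.2%) with the sample series as a term, 20 (29.8%) with array weights, 24 (47.5%) with the acinar score, 31 (59.6%) without GF aCD3 F1, M3 and M4, and 36 (6380 genes) with scaling as well. With 9 between the isotype groups, leaving out 1 library gave 4 (325 genes, without SPF isotype F3) to 10 (775 genes, without GF isotype F5). Scaling and voom gave 0 (1.63% and 1.87%) and quantile normalization gave 1 (1.46%). TPM without Rn45s and histone genes gave 13 (2370 genes), array weights 13 (1904 genes) and the plasma cell score 12 (3052 genes). With 18 between the aCD3 groups, leaving out 1 library gave 12 (4880 genes, without GF aCD3 F1) to 24 (7231 genes, without GF aCD3 M5). Array weights gave 9 (30.2%), the acinar score 2 (7.91%), scaling 25 (3986 genes) and voom 27 (4366 genes). Leaving out F1, M3 and M4 gave 3 (3.52%), or 0 (2.22%) with scaling. With 1 in the interaction (424 of all genes), leaving out 1 library gave 0 to 14 (2491 genes, without GF aCD3 M2), and 5 without SPF isotype F3 (17.0%). A count of 2 came with a pseudocount of 0.1 (774 genes), TPM of at least 5 (440), TPM without Rn45s and histone genes (597) or no sex term (422). Quantile normalization gave 4 (791 genes), scaling 10 (1422) and voom 14 (1839). A count of 0 came with a pseudocount of 5 (273 genes), no filter (233), array weights (159) or the replicate block (17). The plasma score (11 genes), the acinar score (47), and leaving out F1, M3 and M4 on TPM (6) or with scaling (28) also gave 0. The 5 plasma score slopes became 0 without F1, M3 and M4. The cause of these shifts was not tested.

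Of 2521 values of named genes under an alternative, 119 turned sign, 103 of them past the test in neither fit. The other 16 were past it in at least 1 fit. In SPF mice Spcs2 had 0.14 with scaling and 0.15 with voom, and Hspa5 -0.26 with quantile normalization. In GF mice Sec11c had 0.24 without F1, M3 and M4 and with scaling. Between aCD3 groups that setting gave Dnajb9 -0.18, Edem1 -0.016 and Sec61g -0.025. There scaling gave Syvn1 -0.37, Spcs2 -0.066 and Sec11c -0.33, voom gave Syvn1 -0.38, Spcs2 -0.070, Sec11c -0.34 and Xbp1 -0.33, and quantile normalization gave Sec11c -0.24 and Hspa5 0.022.

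The labels do not say whether libraries with the same replicate name share an animal, litter or day. Their deviations correlated with r from -0.03 to 0.10 in SPF and -0.21 to 0.20 in GF mice, and only SPF F3 matched its own name best. Correlations over so few pairs cannot show whether anything but the name is shared. The block cannot give comparisons between GF and SPF mice. The planned edgeR and DESeq2 fits were not run because the deposited unit is TPM. Voom, scaling without F1, M3 and M4, fits within a sample series and slopes without those libraries were chosen after seeing the data. The choice of F1, M3 and M4 as the libraries to leave out itself rests on their Lag3 level in these data. Derl3 had the fewest reads of the 41 genes, with 0 in 1 library.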

Other observations

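In GF aCD3 against GF isotype with all 6 libraries, 2 of 13 other folding genes rose on TPM, against 2.46% of all genes, among them Prdx4 at 0.81 (limma, adjusted p 0.048). Of 12 targeting genes 1, Sec62, fell by 0.42 on the log2 scale, against 4.61% of all genes lower. After scaling 5 of the 13 rose and 1 of the 12 fell, against 9.73% of all genes in either direction. Between the isotype groups 8 of 23 genes of ER-to-Golgi traffic were higher in GF mice on TPM, against 6.42% of all genes, and 0 after scaling. Between the aCD3 groups 10 of the 23, 7 of 12 targeting genes and 8 of 13 other degradation genes were higher in GF mice on TPM, against 48.9% of all genes, and after scaling 0, 1 and 0 were higher and 12, 4 and 3 lower, against 15.8% and 16.9% of all genes. Atf3 was lower in GF isotype, at -0.99 on TPM (adjusted p 0.043) and -1.12 after scaling (adjusted p 0.043).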
